A study of Mus musculus with 21 samples.

Results

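The genes described here are 10 members of the vascular endothelial growth factor (VEGF) and angiopoietin signalling systems: the ligands Vegfa, Vegfb, Vegfc, Angpt1 and Angpt2, the receptors Kdr, Flt1, Tek and Tie1, and the oxygen-regulated transcription factor Hif1a. They were chosen by name, with earlier results of these data known, from the 13279 genes that could be tested, and all 10 could be tested. Together they were read by 21 probe sets, each a group of array features that together measure 1 transcript.

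RNA from 21 mouse heart samples was hybridised to expression arrays, 1 sample per array. Wild-type mice had a sham operation (n = 4) or transverse aortic constriction, TAC (n = 6). Mice labelled G4D, heterozygous for a Gata4 allele from which the second exon was removed, had a sham operation (n = 5) or TAC (n = 6). TAC ties a ligature around the aortic arch and puts the left ventricle under pressure, and sham-operated mice had the same surgery without a ligature. All 4 groups therefore had surgery, and the G4D mice kept 1 intact Gata4 allele. The strain, age and sex of the mice and the time from surgery to sampling are not given in the sources used here, nor is it said whether replicates were separate animals or pools, so the p-values measure the spread between these samples, which may be partly technical.

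VEGF ligands act on blood vessels through receptor tyrosine kinases of endothelial cells: Kdr carries most of the growth and permeability signal, while Flt1 binds Vegfa tightly and, in its soluble form, withholds it. Angpt1, made largely by cells around the endothelium and by heart muscle, activates the receptor Tek and keeps vessels quiescent, Angpt2 from endothelial cells can oppose it, and Tie1 is a partner of Tek. Hif1a is the oxygen-regulated subunit of a transcription factor for which Vegfa is a textbook target, and growth of the capillary bed with the muscle is a known feature of the hypertrophying heart.

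On the brightest probe set of each gene, 2 ligands and Hif1a were called with TAC in at least 1 genotype, and none of the receptors was. Angpt1 fell in both genotypes, to 0.535 times its sham level in wild type and to 0.398 times in G4D. In G4D, Hif1a rose and Vegfb fell as well, although the Vegfb call depended on the normalization and on single arrays. Vegfa, Angpt2, Kdr, Tek and Tie1 passed the test in none of the 5 comparisons. Flt1 did not pass on its brightest probe set, whereas its other 3 probe sets fell with TAC in G4D. Those 3 calls were lost without quantile normalization. No member was called between the genotypes, in sham or after TAC.

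Levels below are log2 signals after quantile normalization, given with their SD, and changes are differences of log2 means with their standard error. A gene was called where its adjusted p in limma, a linear model fitted across all tested genes, was below 0.05. For TAC in wild type 1 of the 10 members was called, against 7.35% of all tested genes, and for TAC in G4D 3 of 10, against 22.5%. For G4D over wild type 0 members were called in sham and 0 after TAC, against 0.0527% and 3.36% of tested genes. The interaction, which compares the TAC effects of the 2 genotypes (G4D minus wild type), called 0 members and 0.0151% of tested genes. At an unadjusted limma p under 0.05 the members numbered 3, 5, 0, 1 and 0 in the same order. The median change of the 10 members with TAC was -0.01 in wild type and -0.00 in G4D, beside -0.02 in both for all tested genes, with 5 members above 0 in each.

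Gata4, the targeted gene, had a mean level of 8.11 ± 0.15 (SD, n = 4) in wild type and 7.85 ± 0.09 (SD, n = 5) in G4D on its brighter probe set in sham arrays, a difference of -0.25 ± 0.12 that was not called (limma adjusted p = 0.893). Where its probe sets lie relative to the removed exon is not known here, so they cannot serve as a check of the labels. The labels name cardiac myocytes as the RNA source. All 14 cardiomyocyte markers passed the filter on low signal, but so did all 25 endothelial, 11 of 11 fibroblast and 10 of 11 macrophage markers, so the RNA also held transcripts of other cell types. In such samples, fewer cells of a type and less RNA per cell cannot be told apart. One library stood apart: the mean of 4 atrial markers was 11.4 in G4D sham replicate 5, and no higher than 8.40 in any other array. Without this library the same members were called in each comparison, and the values without it are given below where a call rests on it. The difference between the 3′ and 5′ probe sets of beta-actin, a sign of RNA quality, went from 0.49 ± 0.10 (SD, n = 4) with sham surgery to 0.34 ± 0.11 (SD, n = 6) with TAC in wild-type arrays, and from 0.45 ± 0.10 (SD, n = 5) to 0.26 ± 0.11 (SD, n = 6) in G4D arrays. It was thus lower on average after TAC, and its part in the TAC changes was not tested.

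**Figure D1:**
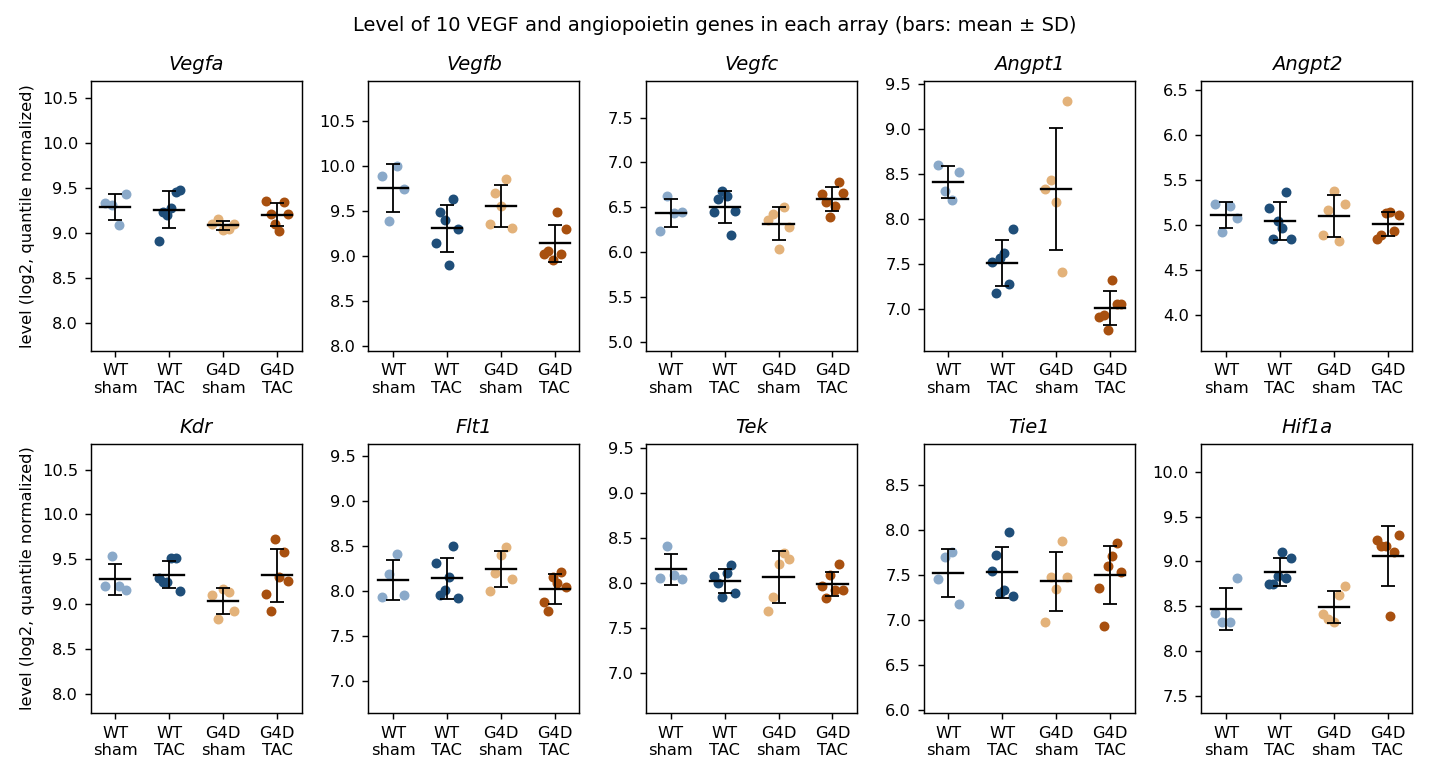
Level of each of the 10 genes on each array (points; vertical axis, log2 signal after quantile normalization; each panel spans the same range of 3 log2 units) in the 4 groups, with group mean and SD (bars). Angpt1 was lower in every TAC array than in every sham array of the same genotype; Vegfa, Angpt2, Tek and Tie1 overlapped between all groups.

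Because Hif1a and Gata4 encode DNA-binding factors, promoters of 3 members are printed: Hif1a, which rose, and Vegfa and Vegfb, ligands with different changes. The windows run from 250 bases before to 50 after a transcript start, 5′ to 3′ on the gene's strand, and come from RefSeq on GRCm38.p6. Windows were found for 8 of the 10 genes, 9 windows in all. In Hif1a and Vegfb, capitals mark the core of the hypoxia response element, ACGTG or GCGTG on either strand. In Vegfa, capitals mark a GATA factor site, AGATAA; the search on both strands also took the forms that end in G instead (AGATAG) or that begin with T (TGATAA and, with both changes, TGATAG).
Hif1a, chr12:73907617-73907916, plus strand: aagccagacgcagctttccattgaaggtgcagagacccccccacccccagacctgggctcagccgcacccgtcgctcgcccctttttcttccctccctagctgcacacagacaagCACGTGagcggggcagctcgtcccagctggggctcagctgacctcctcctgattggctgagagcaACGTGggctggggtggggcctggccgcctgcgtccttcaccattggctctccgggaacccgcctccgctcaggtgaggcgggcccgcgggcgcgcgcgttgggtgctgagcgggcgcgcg
Vegfa, chr17:46032328-46032627, minus strand: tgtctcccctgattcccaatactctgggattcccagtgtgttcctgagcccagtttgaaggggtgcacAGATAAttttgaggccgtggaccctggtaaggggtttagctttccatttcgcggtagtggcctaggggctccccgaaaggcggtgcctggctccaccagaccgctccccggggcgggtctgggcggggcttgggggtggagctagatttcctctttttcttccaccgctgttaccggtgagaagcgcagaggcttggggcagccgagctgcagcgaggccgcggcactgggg
Vegfb, chr19:6987602-6987901, minus strand: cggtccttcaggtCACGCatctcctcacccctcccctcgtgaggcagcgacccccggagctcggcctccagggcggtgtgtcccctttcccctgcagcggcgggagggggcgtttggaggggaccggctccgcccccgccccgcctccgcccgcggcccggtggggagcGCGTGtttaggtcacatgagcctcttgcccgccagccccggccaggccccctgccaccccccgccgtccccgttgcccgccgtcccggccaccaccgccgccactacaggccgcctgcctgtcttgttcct

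The Hif1a window holds 3 matches to the hypoxia core, of which a pair overlap in 1 palindrome (CACGTG) that reads the same on both strands. The Vegfb window holds 2. The Vegfa window printed holds 0 matches to the hypoxia core and 1 to the GATA site, while a second Vegfa window that starts further inside the gene holds 2 hypoxia matches. Across the members, 5 of 9 windows held a hypoxia core and 2 of 9 a GATA site. Of 32851 mouse promoter windows of the same length, 43.8% held a hypoxia core and 29.8% a GATA site. A match describes letters and is no sign of binding.

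Among the VEGF ligands, Vegfa, the main driver of new capillary growth, was called in no comparison. It read 9.33, 9.30, 9.08 and 9.43 in the wild-type sham arrays and 9.10, 9.15, 9.03, 9.04 and 9.09 in the G4D sham arrays. After TAC its lowest, median and highest levels were 8.90, 9.25 and 9.47 in wild type and 9.02, 9.20 and 9.35 in G4D. The groups overlapped. The change with TAC was -0.03 ± 0.10 in wild type (limma adjusted p = 0.906, 95% interval -0.24 to 0.18) and 0.12 ± 0.09 in G4D (adjusted p = 0.393, interval -0.08 to 0.32) with quantile normalization. The G4D difference was larger with the values as deposited (0.56, adjusted p = 0.0786) and with median centring (0.35, adjusted p = 0.128), where the median tested gene stood at 0.31 and 0.10. The dimmer Vegfa probe set, 1451959_a_at, changed by 0.01 ± 0.14 and -0.07 ± 0.13.

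Vegfb, a ligand of Flt1 that is abundant in heart muscle and has been linked to fatty acid uptake, was lower after TAC in both genotypes, and the call was made in G4D. Its levels were 9.89, 9.39, 9.998 and 9.75 in wild-type sham, and the lowest, median and highest after TAC were 8.90, 9.35 and 9.64. In G4D sham it read 9.35, 9.70, 9.56, 9.86 and 9.31, and after TAC 8.96, 9.04 and 9.49 as lowest, median and highest. In wild type 3 of 6 TAC arrays lay below every sham array, and in G4D 5 of 6 did, so the groups overlapped in both genotypes. In wild type the change was -0.45 ± 0.15 (limma adjusted p = 0.078) and in G4D -0.42 ± 0.14 (adjusted p = 0.0375). Of all tested genes, 9.36% were called lower with TAC in G4D. With the values as deposited, without normalization between arrays, the G4D difference was 0.02 (adjusted p = 0.962) while the median tested gene stood at 0.31, and the call was also lost with median centring (-0.19), with no filter on low values (adjusted p = 0.0584), with the replicate block (adjusted p = 0.0756) and when any of 7 single G4D arrays was left out (sham replicates 2, 3 or 4, TAC replicates 1, 2, 3 or 5). Without G4D sham replicate 5 the Vegfb value was -0.48 (adjusted p = 0.0257). Relative to the median tested gene the Vegfb difference was -0.39 as normalized and -0.29 as deposited.

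The genes whose levels followed Vegfb most closely over the 21 arrays were Cox8b, a subunit of mitochondrial cytochrome c oxidase, with a Pearson correlation of 0.91, Tle5, a transcriptional corepressor (0.91), and Pdk2, a kinase that restrains pyruvate oxidation (0.91). After each group mean was removed the correlations were 0.84, 0.84 and 0.86. These 3 were picked from all tested genes for their likeness, so the values describe these arrays only.

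Vegfc, the ligand best known for lymphatic vessel growth through Flt4, was higher after TAC in G4D on all 3 of its probe sets, but the probe set that stood for the gene did not pass the test. That probe set, 1419417_at, changed by 0.06 ± 0.11 in wild type (limma adjusted p = 0.803) and 0.27 ± 0.10 in G4D (adjusted p = 0.0569). On 1440739_at the sham levels in G4D were 5.93, 5.83, 5.75, 6.38 and 6.15, and after TAC the lowest, median and highest were 6.19, 6.44 and 6.80. The groups overlapped through sham replicate 4. In a fit of all 45037 probe sets this rise of 0.42 ± 0.12 was called (adjusted p = 0.0335), whereas the wild-type difference of 0.31 ± 0.13 was not (adjusted p = 0.309). The probe set 1439766_x_at differed by 0.68 ± 0.22 in G4D (adjusted p = 0.0647) and by 0.18 ± 0.24 in wild type (adjusted p = 0.867). In the same fit the interaction was called on none of the 3 probe sets (limma adjusted p = 0.934, 0.977 and 0.918). A larger rise in G4D than in wild type was thus not shown. With the mean of the 3 probe sets in place of the brightest, Vegfc was called in G4D (0.46, adjusted p = 0.0125); for 1440739_at the call was lost when any of 7 single G4D arrays was left out (sham replicates 1, 2 or 3, TAC replicates 1, 3, 5 or 6) and with the values as deposited (adjusted p = 0.0779).

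Angpt1, the agonist of Tek, had the largest change of the 10 members with TAC in each genotype. In wild type, sham arrays read 8.60, 8.32, 8.22 and 8.53, and the lowest, median and highest after TAC were 7.18, 7.55 and 7.89. In G4D, sham arrays read 8.34, 8.43, 8.19, 7.41 and 9.31, and after TAC the lowest, median and highest were 6.76, 6.99 and 7.32. Sham and TAC did not overlap in either genotype, although the G4D sham arrays spread widely, with replicate 4 low and replicate 5 high.

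The fall was -0.90 ± 0.23 in wild type (limma adjusted p = 0.0179) and -1.33 ± 0.21 in G4D (adjusted p = 0.000139). Of all tested genes, 2.16% were called lower with TAC in wild type. The groups did not overlap in 10.5% of tested genes in wild type and in 10.1% in G4D, and Angpt1 was the 1 member of 10 for which this held in each. Without G4D sham replicate 5, the array with high atrial markers, the G4D fall was -1.08 (adjusted p = 0.000153), and without replicate 4 it was -1.56 (adjusted p = 5.35e-06). The G4D call held under all 30 alternatives tried, with values from -1.56 to -0.91. The wild-type call held under 26 of 30. It was lost with the values as deposited (-0.98, adjusted p = 0.124), with the mean of the probe sets (-0.67, adjusted p = 0.0875) and without wild-type sham replicate 1 (-0.84) or 4 (-0.87).

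In order of mean Angpt1 level, wild-type sham stood highest at 8.42 ± 0.18 (SD, n = 4), then G4D sham at 8.34 ± 0.68 (SD, n = 5), wild-type TAC at 7.51 ± 0.26 (SD, n = 6) and G4D TAC at 7.01 ± 0.19 (SD, n = 6). The sham groups overlapped and differed by -0.08 ± 0.24 (limma adjusted p = 0.97). The TAC groups overlapped too, and G4D was lower by -0.50 ± 0.20 (adjusted p = 0.24); this difference was called when only those 2 groups were fitted (adjusted p = 0.044). The interaction of -0.42 ± 0.31 was not called (adjusted p = 0.77), so a larger fall in G4D than in wild type was not shown.

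A dimmer Angpt1 probe set, 1421441_at, agreed in sign. In the fit of all probe sets it fell by 1.21 on the log2 scale in G4D (SE 0.25, limma adjusted p = 0.00455), again with no overlap between sham and TAC, and differed by -0.44 ± 0.27 in wild type (adjusted p = 0.606). In that fit, which adjusts over more tests, the brighter probe set was called in G4D (adjusted p = 0.000694) and missed the threshold in wild type (adjusted p = 0.0556).

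The genes whose levels were most like Angpt1 over the 21 arrays were Maob, a mitochondrial monoamine oxidase (r = 0.93), Kcnj3, a potassium channel subunit of atrial and pacemaker muscle (r = 0.91), and Rgs2, an inhibitor of Gq signalling (r = 0.89). With group means removed the correlations were 0.72, 0.76 and 0.57. These genes too were picked from all tested genes for their likeness, so the values describe these arrays only. Without G4D sham replicate 5, the array with high atrial markers, the correlations of levels were 0.90, 0.88 and 0.86, and with group means removed they dropped to 0.46, 0.49 and 0.26.

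Angpt2, which can block or weakly activate Tek depending on context, was called in no comparison. In wild type its mean was 5.11 ± 0.14 with sham surgery (SD, n = 4) and 5.04 ± 0.21 with TAC (SD, n = 6), and in G4D it was 5.10 ± 0.23 with sham surgery (SD, n = 5) and 5.01 ± 0.13 with TAC (SD, n = 6). The TAC change was -0.06 ± 0.12 and -0.09 ± 0.11 in wild type and G4D (limma adjusted p = 0.826 and 0.608). Its other probe set, 1459636_at, averaged 3.53 over the arrays, under the filter level of 4.35, and was the 1 probe set of the 21 that did not pass.

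**Figure D2:**
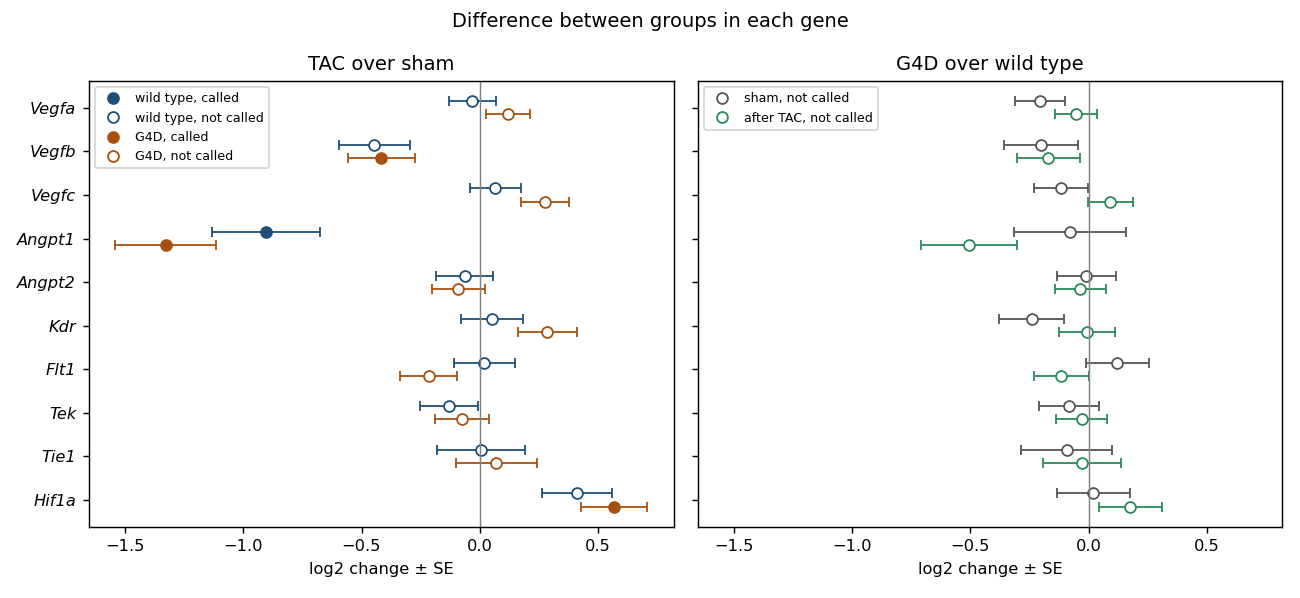
Log2 change with its standard error (horizontal axis) for each of the 10 genes, TAC over sham in each genotype (left) and G4D over wild type in each surgery group (right). Filled circles are called at a limma adjusted p below 0.05: Angpt1 in both genotypes, and Vegfb and Hif1a in G4D. All circles on the right are open.

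Of the receptors, Kdr, the main signalling receptor for Vegfa, read 9.20, 9.53, 9.21 and 9.16 in wild-type sham and 9.10, 8.84, 9.18, 9.13 and 8.93 in G4D sham. After TAC its lowest, median and highest levels were 9.15, 9.27 and 9.52 in wild type and 8.92, 9.28 and 9.73 in G4D. The groups overlapped, with G4D sham the lowest on average. The change with TAC was 0.05 ± 0.13 in wild type (limma adjusted p = 0.876) and 0.29 ± 0.12 in G4D (adjusted p = 0.103). The G4D difference was called with the values as deposited (0.72), with median centring (0.51) and without G4D TAC replicate 2 (0.37), and the median tested gene stood at 0.31 and 0.10 under those other scalings.

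Tek, the angiopoietin receptor, changed by -0.13 ± 0.12 with TAC in wild type and by -0.07 ± 0.11 in G4D. Tie1, its partner, changed by 0.01 ± 0.18 and 0.07 ± 0.17. Neither was called, and the limma adjusted p ran from 0.618 to 0.992. The 95% intervals of the TAC change ran from -0.38 to 0.16 for Tek and from -0.38 to 0.43 for Tie1 over both genotypes, for the quantile-normalized values. With the values as deposited the G4D differences were 0.34 for Tek (adjusted p = 0.261) and 0.47 for Tie1 (adjusted p = 0.169).

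Flt1, the high-affinity receptor that also exists in a soluble form, gave different answers on different probe sets. The brightest, 1419300_at, which stood for the gene, changed by 0.02 ± 0.13 in wild type and -0.22 ± 0.12 in G4D (limma adjusted p = 0.955 and 0.216), and in G4D by 0.21 with the values as deposited (adjusted p = 0.506). When every probe set was fitted, the other 3 fell with TAC in G4D: 1451756_at by 0.60 on the log2 scale (adjusted p = 0.0185), 1440926_at by 0.57 (adjusted p = 0.0278) and 1454037_a_at by 0.63 (adjusted p = 0.011). On 1454037_a_at the G4D sham arrays read 6.28, 6.50, 6.64, 6.47 and 6.26, and the lowest, median and highest after TAC were 5.14, 5.88 and 6.09. Every G4D TAC array lay below every G4D sham array on this probe set.

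In wild type those 3 probe sets differed by -0.16, -0.21 and -0.22, and none was called. Their interactions of -0.44, -0.37 and -0.42 were not called either (limma adjusted p = 0.876, 0.917 and 0.886). A larger fall in G4D than in wild type was thus not shown. G4D differed from wild type by 0.36, 0.35 and 0.25 in sham and by -0.08, -0.02 and -0.17 after TAC, with no calls. On each array, the mean of these 3 less the brightest went from -1.48 ± 0.19 (SD, n = 5) with sham surgery to -1.86 ± 0.24 (SD, n = 6) with TAC in G4D, and from -1.67 ± 0.21 (SD, n = 4) to -1.89 ± 0.21 (SD, n = 6) in wild type. With the mean of the 4 probe sets in place of the brightest, Flt1 was called lower with TAC in G4D (-0.51, limma adjusted p = 0.0019). The disagreement was seen only after the values were known, and which transcript forms each probe set reads was not determined; the beta-actin 3′ to 5′ difference also moved with TAC, and its part was not tested. Without G4D sham replicate 5 the 3 values were -0.74, -0.68 and -0.68, and all were called. The 3 calls were lost without quantile normalization: the values were -0.20, -0.24 and -0.29 as deposited, and -0.41, -0.44 and -0.50 with median centring, and the lowest adjusted p among these 6 was 0.119. With single arrays left out, 1440926_at kept its call in 15 of 21 fits, losing it without G4D sham replicate 2, 3 or 4 or G4D TAC replicate 1, 2 or 3, and 1451756_at in 19, losing it without G4D sham replicate 2 or 3.

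Counted by probe set, 8 of the 21 were called with TAC in G4D, 3 higher and 5 lower, against 8.97% of all 45037 probe sets, and 0 of 21 in wild type, against 2.03%. These shares also cover probe sets below the filter on low signal, which 20 of the 21 passed, so the bases are unlike. With 1 filtered probe set per gene, 3 of 10 members were called in G4D, against 22.5% of tested genes. At an unadjusted limma p under 0.05 the probe-set counts were 12 in G4D and 4 in wild type. Probe sets of 1 gene share its transcripts and are not independent.

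**Figure D3:**
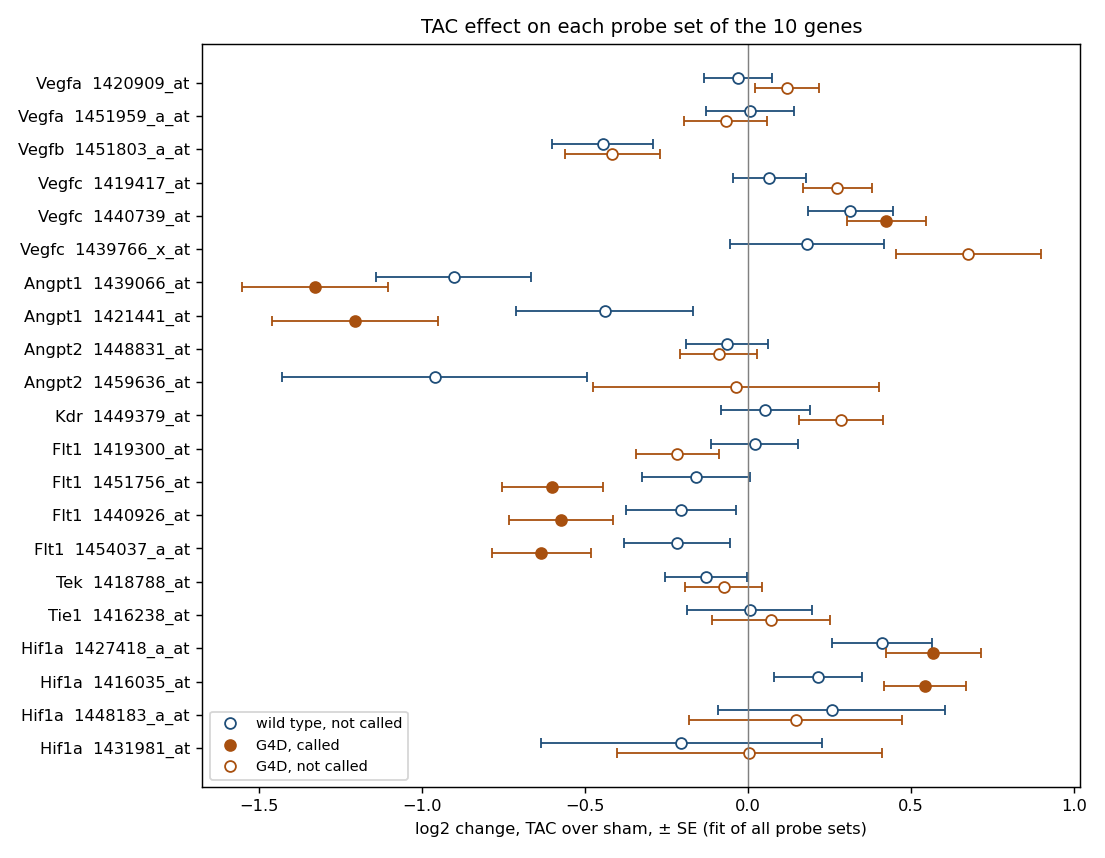
Log2 change with TAC and its standard error (horizontal axis) for each of the 21 probe sets, in wild type (blue) and G4D (orange), from the fit of all probe sets; filled circles are called. The brightest probe set of each gene stands first; in Flt1 it lies near -0.22 in G4D while the other 3 lie near -0.60.

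The 4 receptors are made mainly by endothelial cells, and 5 of their 6 pairs were correlated from array to array. With each group mean removed, 45 pairs of members were examined over the 21 arrays, and 6 had an adjusted p under 0.05 by permutation within groups. Flt1 and Tie1 had the strongest relation (Pearson r = 0.78, adjusted permutation p = 0.0054; Spearman rho = 0.78, adjusted permutation p = 0.0144; r = 0.73 without the 2 arrays farthest out in Flt1). Tek correlated with Tie1 (r = 0.67, adjusted permutation p = 0.0231), with Flt1 (r = 0.65, adjusted p = 0.0275) and with Kdr (r = 0.59, adjusted p = 0.0275), and Kdr with Flt1 (r = 0.61, adjusted p = 0.0275). The pair of Kdr and Tie1 did not pass (r = 0.51, adjusted permutation p = 0.183). Spearman's rho for these pairs was 0.65, 0.69, 0.64 and 0.65, and r without the 2 farthest arrays was 0.54, 0.72, 0.61 and 0.57. Leaving out G4D sham replicate 5 gave an r of 0.80 for Flt1 with Tie1 and 0.69, 0.73, 0.66 and 0.60 for those pairs. The share of pairs among all tested genes that would pass was not computed, so these counts have no background beside them.

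Promoters of the pair with the strongest relation are shown because ETS factors are well known regulators of endothelial genes. Capitals mark CGGAAG or AGGAAG on either strand.
Flt1, chr5:147725962-147726261, minus strand: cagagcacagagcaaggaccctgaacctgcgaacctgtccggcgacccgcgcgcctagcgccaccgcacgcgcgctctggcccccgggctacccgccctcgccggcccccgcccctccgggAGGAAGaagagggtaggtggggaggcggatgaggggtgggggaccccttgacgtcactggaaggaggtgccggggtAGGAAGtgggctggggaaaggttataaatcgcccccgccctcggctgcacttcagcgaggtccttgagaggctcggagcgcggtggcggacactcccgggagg
Tie1, chr4:118489800-118490099, minus strand: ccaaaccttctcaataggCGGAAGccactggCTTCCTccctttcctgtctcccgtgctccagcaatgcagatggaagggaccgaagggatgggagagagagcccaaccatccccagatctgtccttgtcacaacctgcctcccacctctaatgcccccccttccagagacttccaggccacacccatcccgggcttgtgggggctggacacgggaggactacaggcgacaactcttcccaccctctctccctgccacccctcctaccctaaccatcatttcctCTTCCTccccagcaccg
The Flt1 window holds 2 matches and the Tie1 window 3, and the other 7 windows of members hold 0. Of all 32851 windows, 46.5% hold at least 1 match. The matches describe letters only, and whether the sites are bound was not tested.

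The same 4 receptors followed a mean of 25 endothelial markers that does not hold them. With group means removed, r was 0.83 for Tek (adjusted permutation p = 0.0002), 0.73 for Tie1 (adjusted p = 0.0041), 0.66 for Flt1 (adjusted p = 0.0064) and 0.61 for Kdr (adjusted p = 0.0192), among 10 members examined. The same r without G4D sham replicate 5 was 0.82, 0.74, 0.71 and 0.66. The share of all tested genes that would pass against this mean was not computed.

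**Figure D4:**
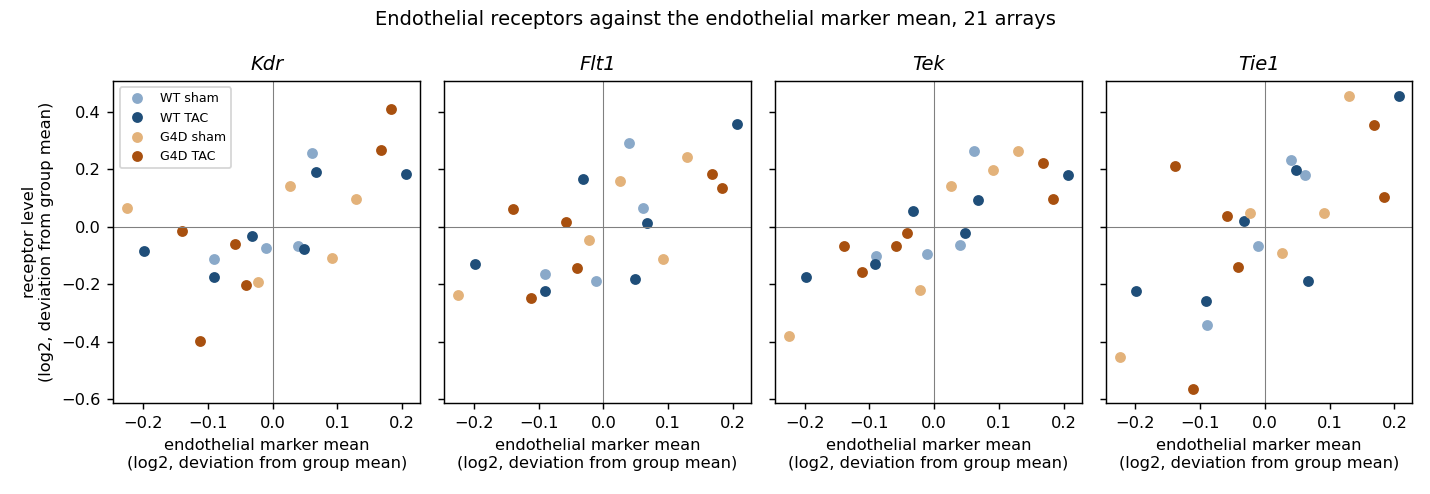
Level of each receptor (vertical axis) against the mean of 25 endothelial markers (horizontal axis), both as log2 deviations from the group mean, 1 point per array and 21 arrays. Points rise from lower left to upper right in all 4 panels, with r from 0.61 (Kdr) to 0.83 (Tek).

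Of the endothelial markers themselves, 5 of 25 were called with TAC in each genotype. Their mean ran from 8.0 to 8.15 in wild-type sham, 8.14 to 8.55 in wild-type TAC, 7.94 to 8.29 in G4D sham and 8.10 to 8.42 in G4D TAC. In wild type 5 of 25 were called higher with TAC and 0 lower, against 5.19% and 2.16% of all tested genes, among them Cd34 (0.80), the adhesion molecule Icam2 (0.66) and Pecam1 (0.53), with a list median of 0.26. In G4D 3 were called higher, Cd34 (0.82), Ets1 (0.49) and Icam2 (0.45), and 2 lower, the water channel Aqp1 (-0.72) and the transcription factor Sox17 (-0.44), with a list median of 0.10; 13.1% of all tested genes were called higher there and 9.36% lower. Of the 5 wild-type calls 0 held with the values as deposited and 2, Icam2 and Cd34, with median centring. The calls of Aqp1 and Sox17 were lost under both scalings (Aqp1 -0.32 and Sox17 -0.03 as deposited), while the 3 higher calls in G4D held. Set against this mean on the same array, Tek ran from -0.04 to 0.26 in wild-type sham and from -0.39 to -0.23 in wild-type TAC, groups that did not overlap, as was so for 18.8% of all tested genes set against the same mean. The other 3 receptors overlapped: in wild type Kdr averaged 1.19 with sham surgery and 0.99 with TAC, Flt1 0.03 and -0.20, and Tie1 -0.57 and -0.81. In G4D all 4 overlapped, against 6.33% of tested genes that did not, and the means were 0.87 and 1.08 for Kdr, 0.08 and -0.21 for Flt1, -0.09 and -0.25 for Tek and -0.73 and -0.74 for Tie1. The part of endothelial content in the receptor values was not tested.

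Markers of other cell types also moved with TAC, in counts to be read against the 5.19% and 2.16% of all tested genes called higher and lower in wild type and the 13.1% and 9.36% in G4D. Of 10 tested macrophage markers 9 were called higher in wild type and 10 in G4D. Of 11 fibroblast markers 5 were called higher in each genotype, with 1 called lower in wild type and 2 in G4D. Pericyte and smooth muscle markers gave 2 higher and 1 lower of 11 in each genotype, and cardiomyocyte markers 0 of 14 in wild type and 2 of 14 lower in G4D. Without G4D sham replicate 5 the G4D counts were 8 higher for macrophage, 7 higher and 2 lower for fibroblast, 3 higher and 1 lower for pericyte and smooth muscle and 2 lower for cardiomyocyte markers. With the values as deposited 0 macrophage markers were called in wild type and 10 in G4D, and both lower cardiomyocyte calls were lost. Under that setting 95 of all tested genes were called in wild type and 2252 in G4D, so the shares above do not apply to it. The mean of the fibroblast markers ran from 9.19 to 9.24 in wild-type sham and 9.48 to 10.11 after TAC, and from 9.12 to 9.77 and 9.76 to 10.23 in G4D. The part of these cell types in the changes of Angpt1, Hif1a, Vegfb and Vegfc was not tested.

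The remaining correlated pair was Vegfc and Angpt2, which ran in opposite directions within groups (r = -0.72, adjusted permutation p = 0.0231; rho = -0.66, adjusted permutation p = 0.0284; r = -0.55 without the 2 farthest arrays). Vegfc did not pass the test against the endothelial mean (r = -0.18, adjusted permutation p = 0.675).

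Hif1a was higher after TAC in both genotypes, and the call was made in G4D. It read 8.43, 8.33, 8.32 and 8.81 in wild-type sham, and after TAC 8.75, 8.83 and 9.11 as lowest, median and highest. In G4D sham it read 8.42, 8.36, 8.33, 8.63 and 8.73, and after TAC the lowest, median and highest were 8.39, 9.17 and 9.30. In G4D 5 of 6 TAC arrays stood above every sham array, and replicate 4, at 8.39, lay among the sham values. The rise was 0.57 ± 0.14 in G4D (ratio 1.48, limma adjusted p = 0.00529), and the wild-type difference was 0.41 ± 0.15 (ratio 1.33, adjusted p = 0.107). Of all tested genes, 13.1% were called higher with TAC in G4D.

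In G4D the Hif1a call held in all 21 fits that left out 1 array, with values from 0.52 to 0.70, under both other scalings, and without G4D sham replicate 5 (0.63, adjusted p = 0.00444). It was lost with the mean of its 4 probe sets (0.31, limma adjusted p = 0.153). Of those, 1416035_at rose by 0.54 ± 0.13 in G4D with no overlap between sham and TAC (adjusted p = 0.00891 when all probe sets were fitted), while 1448183_a_at changed by 0.15 ± 0.33 and the dim 1431981_at by 0.00 ± 0.41. In wild type Hif1a was called with array weights (adjusted p = 0.0394) and without G4D TAC replicate 4 (adjusted p = 0.0197). The genotypes did not differ in sham (0.02 ± 0.15) or after TAC (0.18 ± 0.13) at the threshold, and the interaction was 0.16 ± 0.20 (adjusted p = 0.911).

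The genes most like Hif1a over the 21 arrays were Emp1, a membrane protein of epithelia and other tissues (r = 0.93, and 0.90 with group means removed), Pls3, an actin-bundling protein (0.92 and 0.83), and Ap3s1, a subunit of an endosomal adaptor complex (0.92 and 0.80). Like those given for Vegfb, they were picked from all tested genes for their likeness, so the values describe these arrays only.

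The counts of the next 4 lists stand beside the same shares of all tested genes, 5.19% higher and 2.16% lower in wild type and 13.1% and 9.36% in G4D. Of 11 tested genes for other HIF subunits and for HIF regulation, 0 were called higher and 2 lower with TAC in wild type: Cited2, which competes with HIF for its coactivator (-0.52 ± 0.14), and Egln1, the main oxygen-sensing prolyl hydroxylase (-0.43 ± 0.10). The Cited2 and Egln1 calls were lost with the values as deposited (limma adjusted p = 0.617 and 0.449) and with median centring (limma adjusted p = 0.225 and 0.166). In G4D 2 rose, Egln3, a hypoxia-inducible prolyl hydroxylase (0.77 ± 0.17), and Vhl, which targets HIF for degradation (0.27 ± 0.10). The Vhl call was lost with the values as deposited (limma adjusted p = 0.0536). Another 2 were called lower in G4D, Epas1, the HIF2 alpha subunit (-0.32 ± 0.07), and Egln1 (-0.32 ± 0.10), but with the values as deposited these turned to 0.07 and 0.10. Egln3 was the 1 member of this list called between genotypes, higher in G4D after TAC by 0.90 ± 0.16 (limma adjusted p = 0.00287), where 2.09% of all tested genes were called higher. The list median with TAC was -0.07 in wild type and -0.16 in G4D.

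Of 19 tested HIF targets other than Vegfa, 2 were called with TAC in wild type, against 7.35% of all tested genes, and 4 in G4D, against 22.5%. In wild type Hmox1, which degrades haem, rose by 0.36 ± 0.10 and Pdk1, a kinase that restrains pyruvate oxidation, fell by 0.33 on the log2 scale. The other 17 were not called. The Hmox1 and Pdk1 calls were lost with the values as deposited (limma adjusted p = 0.977 and 0.840) and with median centring (limma adjusted p = 0.0703 and 0.286). In G4D the collagen prolyl hydroxylases P4ha1 (0.82 ± 0.11) and P4ha2 (0.58 ± 0.08) and the lactate dehydrogenase Ldha (0.26 ± 0.08) rose. Mxi1, a Myc antagonist, fell by 0.44 on the log2 scale, a call that was lost with the values as deposited (-0.01) and with median centring (-0.22). The Ldha call was lost under both settings too (limma adjusted p = 0.0832 and 0.165). With G4D sham replicate 5 left out, 7 of the 19 were called in G4D, Hk2, Adm and Kdm3a among them. After TAC, P4ha1 (0.66 ± 0.10), P4ha2 (0.34 ± 0.08) and Ldha (0.28 ± 0.07) were higher in G4D than in wild type. The P4ha2 and Ldha calls between genotypes were lost under both other scalings, and that of P4ha1 with the values as deposited (adjusted p = 0.0975). In the same comparison 1 of 11 tested fibroblast markers, Mfap5 (0.90), was called higher in G4D. Of 11 tested pericyte and smooth muscle markers, Acta2 (0.81) and Cspg4 (0.66) were called higher and the other 9 were not called. The medians of these marker lists were 0.23 and -0.03, and 2.09% of all tested genes were called higher. Both P4ha genes serve collagen synthesis, and in G4D fibroblast markers such as Col1a1 (2.07) and Col3a1 (1.56) were called higher with TAC while Fbln1 (-0.75) and Gsn (-0.66) were called lower; the part of fibroblast content in these rises was not tested. The median change of the 19 HIF targets with TAC was 0.03 in wild type and 0.06 in G4D.

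Of 9 tested other ligands and receptors, Nrp2, a co-receptor for Vegfc, rose with TAC in wild type (0.72 ± 0.17, limma adjusted p = 0.0139) and in G4D (1.11 ± 0.16, adjusted p = 5.82e-05). The wild-type Nrp2 call was lost with the values as deposited (limma adjusted p = 0.539). Flt4, the Vegfc receptor of lymphatic endothelium, rose in G4D (0.53 ± 0.13, adjusted p = 0.00453). The other 8 in wild type and 7 in G4D were not called. Among lymphatic endothelial markers, which include Flt4, Pdpn was called higher and Prox1 lower in both genotypes, so the defining markers did not move one way. Prox1 lost its G4D call with the values as deposited (-0.22, limma adjusted p = 0.535) and with median centring (-0.42, adjusted p = 0.136). The wild-type Prox1 and Pdpn calls were lost with the values as deposited (limma adjusted p = 0.144 and 0.583).

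Among 23 tested downstream and vessel-patterning genes, 3 were called higher and 0 lower with TAC in wild type, and 7 higher and 0 lower in G4D. Thbs1, a secreted inhibitor of angiogenesis, rose by 1.62 ± 0.26 in wild type and 1.76 ± 0.25 in G4D. Col18a1, the source of endostatin, rose by 1.18 ± 0.16 and 0.92 ± 0.15, and the protease Adamts1 by 0.76 ± 0.16 and 0.73 ± 0.15. The wild-type Adamts1 call was lost with the values as deposited (limma adjusted p = 0.255). In G4D the apelin receptor Aplnr (0.97 ± 0.21) and the Kdr adaptor Shb (0.92 ± 0.15) were also called. Over these 4 lists 29 changes were called, of which 27 kept their sign with the values as deposited and 29 with median centring, and 15 and 19 were still called there, none of them a lower call. Of the 29, the call of Apln in G4D was lost when G4D sham replicate 5 was left out.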

How the data were processed

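Total RNA labelled with biotin was measured on 21 arrays, 1 per sample. The authors deposited log2 values per probe set, summarised from single probes with PLIER per the submitters' processing notes; its version, background correction and normalization are not given in the sources used here, and the log2 scale was read from the values. The array medians of the deposited values ran from 4.31 to 5.33, so quantile normalization between arrays was applied, which forces the arrays to 1 distribution. The 64 control probe sets were left out. Probe sets with exactly 1 symbol in the platform annotation and a mean at or above the 40th percentile (4.35) were kept, and the brightest stood for its gene, giving 13279 genes.

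Groups, taken from the sample titles, were fitted together in limma 3.58.1 under R 4.3.3, with no covariate and 17 residual degrees of freedom. Tests were two-sided with Benjamini-Hochberg adjustment over all tested genes; every adjusted p is from limma unless called a permutation p (100000 permutations within groups, numpy 2.4.6). A second fit held all 45037 non-control probe sets, for the 21 of the members. The fit was tested on simulated data. Alternatives tried were no filter, a 60th-percentile filter, values as deposited, median centring, the mean of a gene's probe sets, only the groups compared, array weights, a trended robust prior, the replicate block and each array left out. For lists, the other scalings and leaving out G4D sham replicate 5 were chosen after seeing the data. For correlations, leaving out that array was also chosen then, and the other scalings were not applied.

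All 10 members and all their probe sets are named. Of 4 pathway lists, up to 3 called genes with the largest change in each direction are named per comparison; Col1a1 and Col3a1 were named after their values were seen. The 3 genes most like each called member were taken by Pearson correlation over all arrays, leaving out clone-type names. Lists were written from general knowledge. The members and lists were chosen with earlier results of these data known.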

Additional observations from a re-analysis of the deposited data

Results flagged for a closer look

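In groups of 4 to 6 arrays, the highest or lowest value of a probe set was set against the rest by the gap to its nearest neighbour over the group's range (Dixon's criterion). Of 84 combinations of probe set and group, 5 stood out, and chance alone gives about 1 in 20. Wild-type sham replicate 2 was the highest of its group for Tek, at 8.42 against 8.09 for the nearest array, and for Kdr, at 9.53 against 9.21. G4D TAC replicate 4 was the lowest of its group for Hif1a on 1427418_a_at, at 8.39 against 9.10, and wild-type TAC replicate 2 the lowest for Hif1a on 1416035_at, at 6.44 against 6.86. G4D TAC replicate 3 was the lowest of its group for Flt1 on 1454037_a_at, at 5.14 against 5.86.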

How the results depend on the processing

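For TAC in wild type, where 1 member was called, 0 were called with the values as deposited and with the mean of the probe sets, 3 with array weights, and 0 to 2 when single arrays were left out: 0 without wild-type sham replicate 1 or 4, and 2 without wild-type sham replicate 2 or G4D TAC replicate 4. For G4D over wild type after TAC, 1 was called when only those groups were fitted, and 0 otherwise. Vegfb with TAC in G4D turned from -0.42 to 0.0195 with the values as deposited, a value that was not called. Over 50 member changes and 1485 alternative values, 14 were called under an alternative only, and 91 values that were not called changed sign; the causes were not tested. With the values as deposited the median tested gene stood at -0.10 for TAC in wild type and 0.31 in G4D, and 2202 of 2252 calls in G4D were higher, against 1745 of 2988 after quantile normalization; with median centring 1941 of 2185 were. In wild type 90 of 95 calls and 365 of 389 were higher under the same settings. The probe-set alternatives for Flt1, Vegfc, Angpt1 and Hif1a were chosen after seeing the data.

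No general pairing of samples by the replicate numbers in the titles was seen. Over 28 pairs of samples with the same number the correlation of deviations ran from -0.36 to 0.42, and 9 were over 0.1. Of 21 samples, 2 correlated best with their own number. Such correlations cannot exclude a weak or partial pairing. With the replicate block, 1 member was called for TAC in wild type, 2 in G4D (Vegfb, at -0.43, was not), and 0 in the other comparisons. The interaction has no fit of only the groups compared, and Angpt2 fell below the 60th-percentile filter. Signal over background and the number of arrays limit precision, most of all for the dim probe sets 1431981_at and 1459636_at.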
